A study of Homo sapiens with 3 samples.

Results

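The comparison described here set the SK-Hep-1 line that carried the second of 2 short hairpins against the long noncoding RNA LINC01089 (sh1089-2) against the line that carried a negative control hairpin (shNC). It used 2 of the 3 libraries in the study, 1 for each line, and all 10313 protein-coding genes with a mean of at least 1 FPKM over the 3 libraries, out of 16858 protein-coding genes and 22464 gene identifiers in the deposited table. FPKM is a read count scaled by gene length and by library size. Its sum differs between libraries, so a comparison between them is approximate. The effect of rescaling to an equal sum (TPM) is given at the end. A difference is log2(FPKM + 1) in sh1089-2 minus that in shNC, so a positive value means more RNA in the hairpin line.

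The parental SK-Hep-1 cells are an established line from a human liver adenocarcinoma. The hairpins were delivered by lentivirus and the lines kept stably, and the third line, sh1089-1, carried another hairpin against the same RNA. All 3 lines share the parental line and the viral delivery, no further treatment is named for any of them, and whether a line was a pool or 1 clone is not given in the sources used here. The purpose stated for the study was to see how LINC01089 affects gene expression. The level of LINC01089 was not analysed here. The label was therefore not checked against its target, and sh1089-2 means the library labelled as a knockdown throughout.

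A short hairpin RNA is cut by Dicer into a small RNA that guides the silencing complex to matching transcripts, and each hairpin can also reach transcripts other than its target, which is why more than 1 hairpin is commonly used. Some of the largest values below belong to genes of lipid synthesis. These are switched on by the sterol regulatory element binding proteins (SREBPs), which INSIG and SCAP proteins hold in the endoplasmic reticulum membrane until sterols run low. Others belong to cell division, to the interferon response, and to iron storage, in which ferritin, a shell of FTL and FTH1 chains, keeps iron in a safe form.

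Each group was 1 library, so nothing here has a replicate check and no p-value is given. Whole reads could be worked out from the steps between FPKM values. The libraries held 10698480 reads in shNC, 9528312 in sh1089-1 and 8359832 in sh1089-2, with 94.8% to 95.3% of them in listed genes. Intervals printed after a fold are 95% exact counting intervals of the ratio. They cover counting error only, because the reads carry no molecular identifiers, and they say nothing of how far a second culture of the same line would differ. A gene with no read could still hold up to 3 reads, or 0.280 to 0.359 RPM (reads scaled to library size alone), depending on the library. The strand setting of the counting is not given in the sources used here, so genes that overlap another gene can share its reads. A low value does not show a silent gene either: ALDOA, a glycolytic enzyme gene that most cells use, was listed at 0.812, 0.697 and 0.580 FPKM in shNC, sh1089-1 and sh1089-2, the order used for every group of 3 values from here on.

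The liver label was weakly borne out by markers. Of 10 hepatocyte markers, 6 were listed. SERPINA1 (4.69, 5.91 and 8.0 FPKM) was the 1 that passed the filter, and APOA1, TTR and FGB had 0 reads. Of 9 listed endothelial markers, ENG alone passed (37.5, 48.8 and 42.8 FPKM), while PECAM1, CDH5 and VWF lay below 0.04 FPKM. Of 5 listed leukocyte markers, CD14 alone passed, with a difference of −0.145, while PTPRC and LYZ lay at or below 0.0229 FPKM. Summed over their listed genes, the endothelial, hepatocyte and leukocyte markers had 38.0, 48.9 and 43.1, then 5.11, 6.39 and 8.47, then 2.56, 2.51 and 2.37 FPKM. Their part in the results below was not tested. In bulk RNA, fewer cells of a kind and less RNA per cell cannot be told apart, and this holds for every group of genes described.

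Most genes differed little between the lines. The median difference was −0.04, the quartiles were −0.23 and 0.16, and 91.8% were within 1.5-fold of shNC on the log2(FPKM + 1) scale, on which every threshold in this text is set. A 2-fold threshold was passed by 105 genes on the higher side (1.02%) and 70 on the lower (0.679%). At 1.5-fold the counts were 417 (4.04%) and 428 (4.15%), and at 3-fold 12 and 12 (0.116% each). Counts in gene lists below are to be read against these shares. The split varied with the level. From 20 to 100 FPKM, 37 of 1783 genes were 2-fold higher and 14 lower, against 20 and 25 of 4196 genes below 5 FPKM and 7 and 8 of 354 genes at 100 FPKM or more. For sh1089-1, which shares the shNC library, the higher and lower shares were 0.834% and 0.688% at 2-fold, 4.55% and 4.56% at 1.5-fold, and 0.0485% and 0.0873% at 3-fold. The filter uses the mean of the 3 libraries, so a gene that is low in shNC can enter a list through its level in a hairpin line, and the reverse. Of the genes described below, LIPE, for example, passed only through sh1089-2, and AKR1C3, IL1B, TDO2 and KYNU only through shNC. List counts and medians are descriptions for that reason too.

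The 2-fold line cuts through a continuum. CKAP2, a spindle gene with 10.8 FPKM in shNC and 22.7 in sh1089-2, lay just inside it, and TLE2, a corepressor gene with 1.46 and 3.92 FPKM, just outside. On the lower side AFF1, of a transcription elongation complex, was just inside with 8.25 and 3.61 FPKM, and SOD2, the mitochondrial superoxide dismutase gene, just outside with 10.5 and 4.75.

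**Figure D1:**
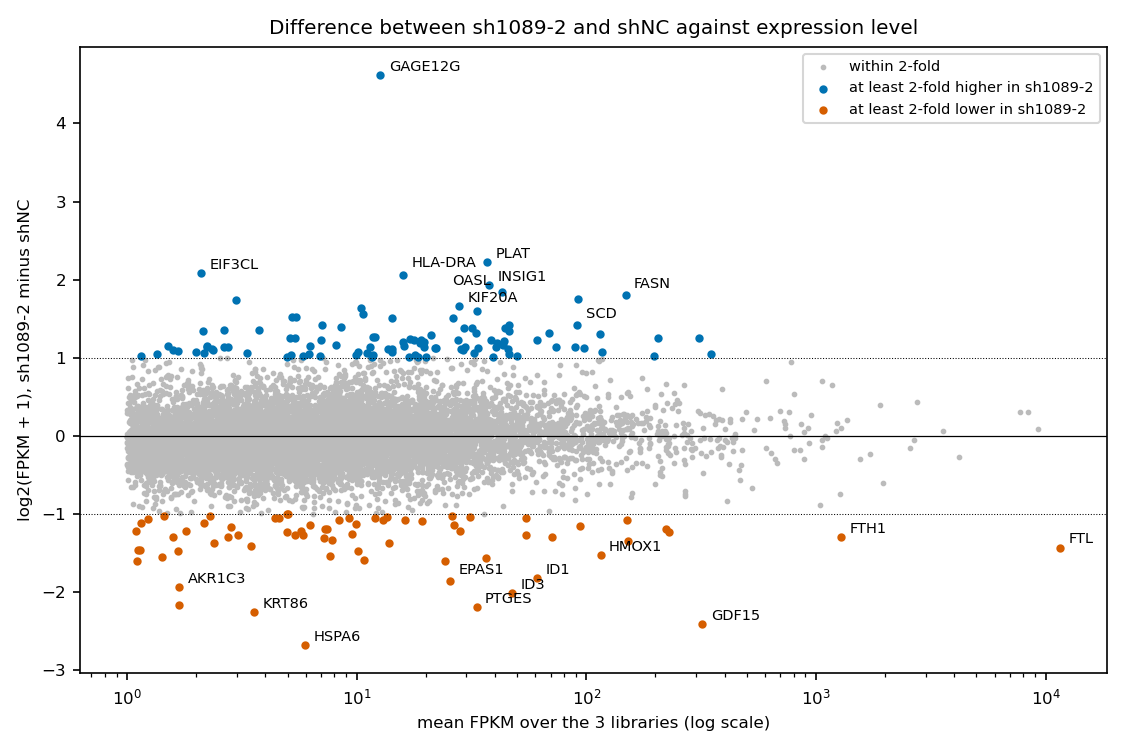
Difference in log2(FPKM + 1) between sh1089-2 and shNC against mean FPKM over the 3 libraries (log axis), 1 point per protein-coding gene, n = 10313. The 105 blue points are at least 2-fold higher and the 70 orange points at least 2-fold lower, and FTL, the rightmost labelled point, combines a very high level with a difference of −1.43.

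Among genes with at least 100 reads in all, the 15 with the largest higher differences were GAGE12G, PLAT, EIF3CL, HLA-DRA, INSIG1, OASL, FASN, SCD, RSAD2, KIF20A, TENT5B, KIF2C, NRGN, ADAMTS6 and WNK4. Of these, 3 make or regulate lipids (INSIG1, FASN and SCD), 2 answer to interferon (OASL and RSAD2) and 2 are mitotic kinesins (KIF20A and KIF2C). The 15 with the largest lower differences were HSPA6, GDF15, KRT86, PTGES, ID3, AKR1C3, EPAS1, ID1, H2BC5, TDO2, HPS5, SPP1, KRT7, HMOX1 and IL1B. They include ID1 and ID3, which bind and block helix-loop-helix transcription factors, the stress-induced genes HSPA6, GDF15 and HMOX1, and the inflammatory genes PTGES and IL1B.

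**Figure D2:**
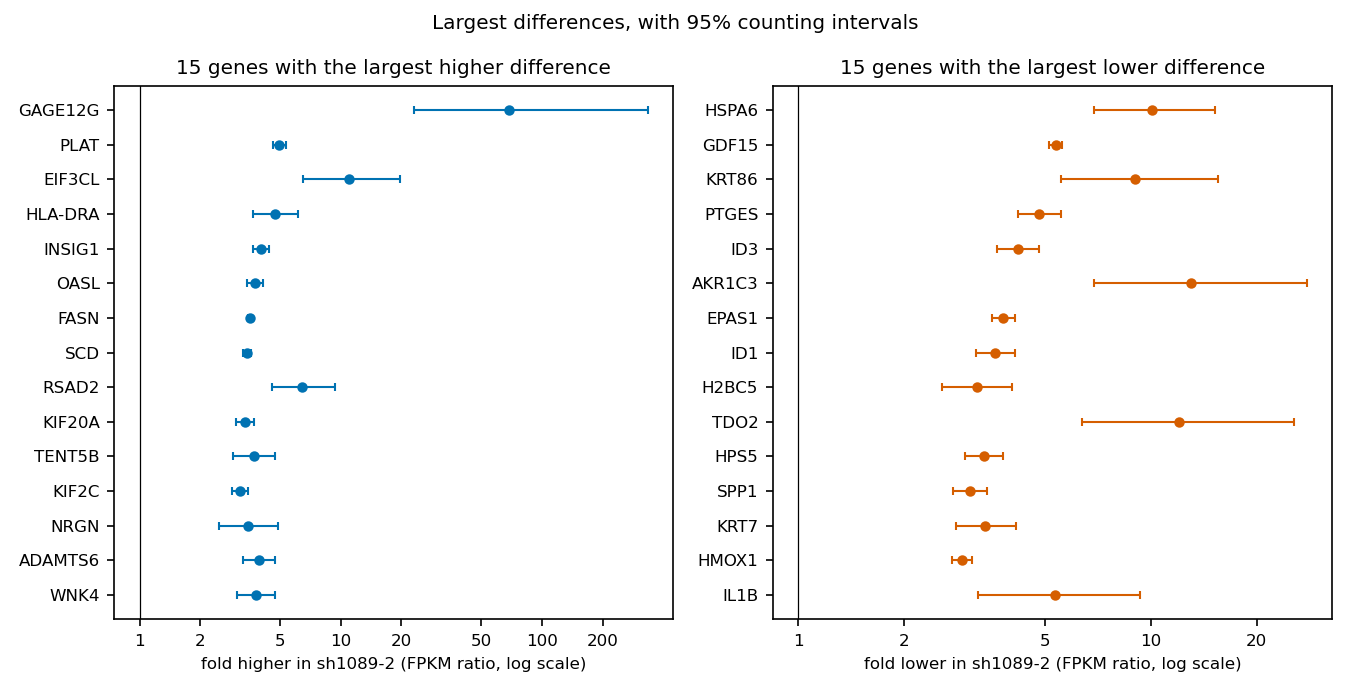
Fold of FPKM between sh1089-2 and shNC (log axes) for the 15 genes with the largest higher and the 15 with the largest lower difference in log2(FPKM + 1), among genes with at least 100 reads. Points are the ratio of single libraries and bars its 95% counting interval, which is widest for GAGE12G (23.1 to 337) because shNC held 3 reads.

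The largest value of all, GAGE12G, cannot be read as 1 gene. The GAGE genes are near-identical tandem copies on chromosome X that encode cancer-testis antigens. GAGE12G (chromosome X, 49570434 to 49577754) had 3, 5 and 161 reads, a 68.7-fold higher FPKM in sh1089-2. Its copy GAGE12J had 0, 164 and 0 reads, and GAGE1 and GAGE2E had 29 and 15 reads in shNC, 2 and 6 in sh1089-1 and 0 in sh1089-2. The reads of the family thus sat on a different copy in each library. Summed over 6 copies they were 48, 177 and 172, a share of all reads 4.59-fold higher in sh1089-2 than in shNC (3.31 to 6.45). EIF3CL, a copy of the translation factor gene EIF3C, was also an uncertain value, with 16, 15 and 137 reads, since most reads of the pair sat on EIF3C in every library. With EIF3C (415, 145 and 393 reads) added, the pair was 1.57-fold higher (1.38 to 1.79).

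TENT5B, whose relatives lengthen poly(A) tails, had 3.65, 14.3 and 13.5 FPKM, and ADAMTS6, a secreted metalloprotease gene, 1.83, 7.27 and 7.16. NRGN, which encodes the calmodulin-binding protein neurogranin, had 3.85, 14.7 and 13.3 FPKM. In these 3 genes shNC was the low library and the hairpin lines were close to each other. WNK4, a kinase that controls salt transporters, had 2.03, 5.99 and 7.67 FPKM, a 3.77-fold difference (3.04 to 4.70).

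Some genes crossed 1 FPKM between the lines. Among genes with at least 100 reads, 9 of those 2-fold higher were under 1 FPKM in shNC and 10 of those 2-fold lower were under 1 FPKM in sh1089-2. APLN, which encodes the peptide hormone apelin, had 0.406, 2.34 and 2.00 FPKM, and EPHB1, an ephrin receptor gene, 0.376, 1.30 and 1.79. On the lower side ALPP, the placental alkaline phosphatase gene, had 3.49, 0.988 and 0.917 FPKM, and CCN5, of the same family of matrix-associated signalling proteins as CCN2, 3.45, 0.464 and 0.817. In these 4 genes both hairpin lines lay on the same side of shNC, the library to which both are compared. For APLN and EPHB1 the filter on the mean of the 3 libraries required this, so it is no finding about them.

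Many genes of lipid synthesis were higher in sh1089-2 than in shNC, led by INSIG1, FASN and SCD, in all of which sh1089-1 lay between the other libraries. The regulators come first. INSIG1, which holds SREBPs in the membrane and is itself an SREBP target (chromosome 7, 155297776 to 155310235), had 16.1, 32.4 and 64.4 FPKM, 3.99-fold higher in sh1089-2 than in shNC (3.65 to 4.38). SREBF1 (chromosome 17, 17810399 to 17837002), which encodes SREBP-1, had 16.4, 34.7 and 44.6 FPKM and was 2.71-fold higher (2.54 to 2.89). It overlaps RAI1 (7.60, 12.1 and 11.9 FPKM). SREBF2, which encodes SREBP-2, had 20.9, 22.2 and 29.1 FPKM. The values split the family: INSIG1 and SREBF1 passed 2-fold and SREBF2 did not pass 1.5-fold. INSIG2, the close relative of INSIG1, went the other way with 4.09, 3.51 and 2.66 FPKM, and SCAP, the sterol sensor that escorts SREBPs, had 22.1, 19.7 and 19.

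LPIN1, a phosphatidate phosphatase, had 3.54, 3.35 and 6.46 FPKM, and here sh1089-2 alone was high. Of the 17 genes listed for SREBP control and cholesterol uptake, 13 were measured, meaning that they passed the filter of 1 FPKM, and 4 of these, INSIG1, SREBF1 and LPIN1 among them, were at least 1.5-fold higher with none lower. The median over the 13 was 0.29, against −0.04 over all genes tested. That median rests on the filter, as it was 0.014 with no filter on low values and 0.16 with a mean of at least 5 FPKM. Without genes that overlap another tested gene, 2 of the 4 higher genes were left. NPC1L1, ABCA1 and ABCG1 were among the 4 that did not pass the filter.

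The sterol pathway was followed from HMG-CoA towards cholesterol. HMGCS1, which makes HMG-CoA, had 5.53, 4.89 and 9.98 FPKM, and here sh1089-2 alone was high. FDPS, the farnesyl diphosphate synthase, had 25.6, 44.5 and 60.8 FPKM, 2.37-fold higher (2.20 to 2.56). FDFT1, the squalene synthase, had 19.2, 31.0 and 49.2 FPKM, 2.57-fold higher (2.38 to 2.76). In both, sh1089-1 lay between shNC and sh1089-2. SQLE, the next enzyme, had 19.4, 16.7 and 23.7 FPKM and stayed within 1.5-fold. LSS, which closes the sterol ring, had 10.5, 18.1 and 22.1 FPKM. In all, 10 of 21 measured genes of 22 listed were at least 1.5-fold higher, 4 of them 2-fold, FDPS, FDFT1 and LSS among them, and none was lower. The other 6 were HMGCS1, MVK, MVD, IDI1, HSD17B7 and DHCR7. The lowest of the 21 was PMVK, phosphomevalonate kinase, with 33.0, 31.9 and 22.2 FPKM. The list median was 0.55 and the share of reads in its 22 genes was 0.0947% in shNC, 0.134% in sh1089-1 and 0.170% in sh1089-2.

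In fatty acid synthesis, FASN (chromosome 17, 82078333 to 82098332), the synthase that builds palmitate, had 70.2, 127 and 248 FPKM. That was 3.53-fold above shNC (3.44 to 3.63), on 7004 and 19334 reads. SCD (chromosome 10, 100347124 to 100364834), which puts the first double bond into saturated fatty acids, had 48.3, 61.9 and 164 FPKM, 3.41-fold above shNC (3.26 to 3.56). SCD stood out in sh1089-2 more than in sh1089-1, where its ratio to shNC was 1.28. FADS2, the delta-6 desaturase, had 1.36, 2.72 and 4.19 FPKM. It shares part of its locus with FEN1, a replication gene at 14.2, 41.1 and 31.6 FPKM, so its value is uncertain. The enzymes upstream differed less: ACLY, which supplies acetyl-CoA, had 89.5, 99.0 and 140 FPKM, and ACACA, which makes malonyl-CoA, 6.66, 7.73 and 12.2. Of 14 measured genes of 16 listed, 6 were at least 1.5-fold higher (those 5 and ACSL3) and none lower. The list median was 0.49, and the 16 genes took 0.221%, 0.289% and 0.492% of the reads.

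The steps that store and burn fatty acids moved less as a group. Of 19 measured genes of triglyceride, lipid droplet and beta-oxidation, 2 were at least 1.5-fold higher and none lower, with a median of 0.09. SLC27A2, a fatty acid transporter and acyl-CoA synthetase, had 2.88, 8.87 and 9.38 FPKM. LIPE, the hormone-sensitive lipase, had 0.417, 0.956 and 1.78 FPKM, and it passed the filter only because sh1089-2 was high. The droplet coat gene PLIN2 had 9.70, 7.20 and 6.52 FPKM and CPT1A, the gate of mitochondrial oxidation, 8.79, 6.05 and 6.75, both within 1.5-fold.

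**Figure D3:**
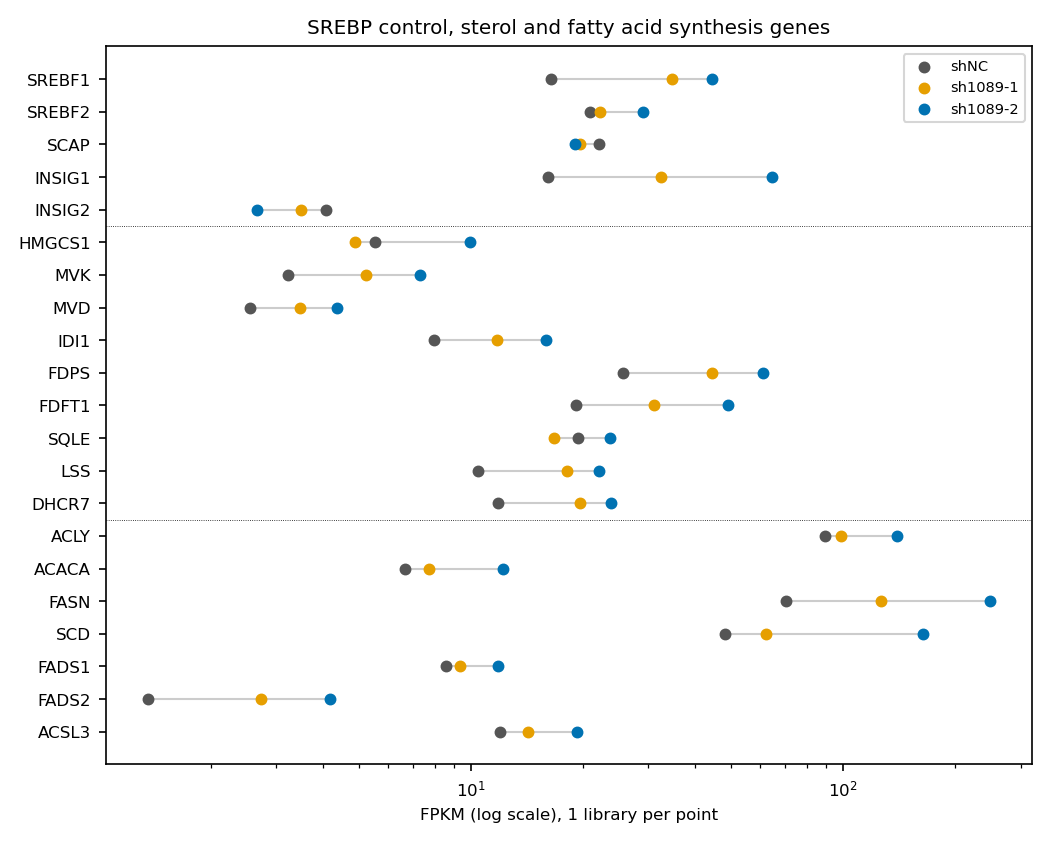
FPKM (log axis) of 21 genes of SREBP control (top), sterol synthesis (middle) and fatty acid synthesis (bottom), 1 point per library. For FASN, SCD, INSIG1 and FDFT1 the sh1089-2 point is the highest and the shNC point the lowest, while SCAP and INSIG2 are lowest in sh1089-2.

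Promoters of lipid genes were searched for the letters TCACNCCAC, a core of the sterol regulatory element, and for CCAAT, the site of the factor NF-Y, on both strands, as were all letters below. RefSeq promoters (GRCh38.p14, 250 bases before to 50 after a start, all windows of a gene) were at hand for 8425 of the 10313 genes tested. TCACNCCAC was in none of the windows of 16 sterol genes and 13 fatty acid genes and in 1 of 11 for SREBP control (SREBF2), against 1.32% of all 8425 genes. FASN had no window, and absence of these exact letters does not show that a promoter lacks the element. CCAAT was in 14 of the 16 sterol genes (87.5%), 10 of the 13 fatty acid genes (76.9%) and 6 of the 11 for SREBP control (54.5%), against 43.2% of all. The stretches below lie 229 to 130 bases upstream of the start of SCD (chr10:100347004-100347103, plus strand) and 122 to 23 bases upstream of that of FDPS (chr1:155308744-155308843, plus strand). They are examples, shown because each carries a pair of matches, in capitals as CCAAT or as its reverse ATTGG. A match is a description of the letters and not a mapped binding site.
SCD: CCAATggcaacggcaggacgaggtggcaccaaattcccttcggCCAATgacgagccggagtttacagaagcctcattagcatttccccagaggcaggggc
FDPS: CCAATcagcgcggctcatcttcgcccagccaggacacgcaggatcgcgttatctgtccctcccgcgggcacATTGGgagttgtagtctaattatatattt

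PLAT, which encodes tissue plasminogen activator, the protease that turns plasminogen into plasmin, had 13.4, 31.2 and 66.6 FPKM. It was 4.95-fold above shNC (4.61 to 5.32), and the 3 libraries lay on 952, 1967 and 3682 reads. The rest of the plasminogen system did not share this size. PLAU, the other activator, had 105, 92.9 and 112 FPKM and its receptor PLAUR 31.5, 22 and 23.4. SERPINE2, an inhibitor of thrombin and of plasminogen activators, was lower with 68.4, 33.0 and 41.4 FPKM, and F3, tissue factor, had 8.49, 15.2 and 13.9. PLG, the substrate gene, had 0 reads. Of 18 measured genes of 21 listed, 2 were at least 1.5-fold higher (PLAT and F3) and 1 lower (SERPINE2), and the median was 0.04.

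MHC class II genes present peptides from outside the cell, and 4 of 9 measured list members were higher in sh1089-2. This list was chosen after its values were seen. HLA-DRA (chromosome 6, 32439842 to 32445046), the invariant alpha chain of HLA-DR, had 5.79, 14.8 and 27.2 FPKM, 4.70-fold above shNC (3.64 to 6.13). CD74, the invariant chain that guards the peptide groove, had 6.82, 14.7 and 21.3 FPKM, and HLA-DPA1 0.813, 2.01 and 3.58. In all 3 genes the order was shNC, then sh1089-1, then sh1089-2. HLA-DRB1 had 1.06, 2.56 and 4.28 FPKM, though related beta chain genes can share its reads. The master regulator CIITA had 1.93, 2.06 and 2.33 FPKM, within 1.5-fold. Those 4, of 16 genes listed, were 2-fold higher and none was 1.5-fold lower. MHC class I and its loading genes did not follow: 0 of 14 measured genes passed 1.5-fold in either direction and their median was −0.14, with B2M, the shared light chain, at 86.3, 70.2 and 78.7.

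Interferon-induced genes were mostly higher. Of 21 measured genes of 29 listed, 12 were at least 1.5-fold higher and 1 lower, with a median of 0.62. The 2-fold members were OASL (16.4, 51.1 and 61.6 FPKM), RSAD2, which makes an antiviral nucleotide (0.752, 3.38 and 4.84), the ubiquitin-like ISG15 (161, 386 and 384), the mitochondrial protein gene IFI6 (34.4, 66.6 and 81.7) and OAS2, a sensor of double-stranded RNA (1.42, 2.16 and 4.33). OASL and RSAD2 were 3.75-fold (3.42 to 4.12) and 6.43-fold (4.52 to 9.37) above shNC. In OAS2 sh1089-1 lay between the other libraries and nearer to shNC than to sh1089-2. Genes of the factors that carry the signal were not higher. STAT2 had 9.14, 5.64 and 8.84 FPKM, and IRF7, the lower member, 7.61, 3.95 and 4.73. MX1, an antiviral GTPase under the filter, had 0.217, 1.08 and 1.61 FPKM.

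The core of the interferon-stimulated response element, a pair of GAAA runs with any 2 bases between, was in the promoters of 12 of 15 list genes with a RefSeq window (80.0%) and of 3.62% of all 8425 genes. The ISG15 stretch (chr1:1013384-1013483, plus strand, 113 to 14 bases upstream) holds overlapping matches and the IFI6 stretch (chr1:27672249-27672348, minus strand, 156 to 57 bases upstream) 3 separate ones, in capitals.
ISG15: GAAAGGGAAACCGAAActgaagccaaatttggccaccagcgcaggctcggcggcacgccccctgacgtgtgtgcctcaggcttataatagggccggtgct
IFI6: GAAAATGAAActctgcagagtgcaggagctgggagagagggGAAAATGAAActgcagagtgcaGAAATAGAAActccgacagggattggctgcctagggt

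Mitotic genes formed the list with the highest median, 1.17. Of 25 measured genes of 27 listed, 21 were at least 1.5-fold higher, 15 at least 2-fold, and none was lower. KIF20A (chromosome 5, 138178719 to 138187715), a kinesin of the dividing cell's midzone, had 12.6, 29.1 and 42.3 FPKM, 3.35-fold above shNC (3.02 to 3.71). KIF2C, a kinesin that dismantles microtubules at the kinetochore, had 15.8, 35.2 and 49.6 FPKM, and CCNB1, the cyclin of mitotic entry, 46.1, 102 and 125. In these 3 sh1089-2 was the highest library. PLK1, a kinase of mitotic entry, had 11.3, 33.8 and 34.0 FPKM, level between the hairpin lines, and MYBL2, a transcription factor of these genes, with 30.2, 98.9 and 76.4 FPKM, was higher in sh1089-1. The 4 measured genes that stayed within 1.5-fold were BUB1B, KIF23, CDK1 and TOP2A. The DNA synthesis list came next. Of its 25 genes, all measured, 19 were at least 1.5-fold higher and none lower, with a median of 0.86 in sh1089-2 and 1.09 in sh1089-1. RRM2, a subunit of ribonucleotide reductase, had 21.4, 54.8 and 57.2 FPKM, and TK1, thymidine kinase, 56.8, 147 and 141. Together the mitotic genes took 0.175% of the reads in shNC, 0.375% in sh1089-1 and 0.391% in sh1089-2. Of the genes named, KIF20A overlaps BRD8 and CDC23, which were level, and PLK1 overlaps ERN2, which was low.

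Brakes of the cell cycle differed little. CDKN1A, the p53-induced inhibitor p21, had 339, 206 and 263 FPKM, CDKN1B 15, 13 and 12.7, and CDKN2A and CDKN2B 0 reads. CDKN2C, an inhibitor of CDK4 and CDK6 that is also an E2F target, was higher with 5.23, 11.8 and 9.39 FPKM. Of 12 measured genes of this list of 14, CDKN2C and CCND2 were at least 1.5-fold higher and none was lower.

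Mitotic promoters often carry the cell cycle homology region, with the letters TTTGAA, a short way after CCAAT. The first was in 11 of 19 mitotic genes with a window (57.9%) and in 12.8% of all 8425, and CCAAT in 16 of the 19 (84.2%). The E2F letters TTTNGCGC were in 11 of 21 DNA synthesis genes (52.4%) and in 3.68% of all. PLK1 (chr16:23678789-23678888, plus strand) and CCNB2 (chr15:59105026-59105125, plus strand) show both, in capitals, in the 100 bases printed, which end 1 base before the start of PLK1 and 21 before that of CCNB2, and CCNB2 has 3 copies of CCAAT.
PLK1: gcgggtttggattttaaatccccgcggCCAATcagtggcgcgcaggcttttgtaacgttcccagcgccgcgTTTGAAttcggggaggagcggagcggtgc
CCNB2: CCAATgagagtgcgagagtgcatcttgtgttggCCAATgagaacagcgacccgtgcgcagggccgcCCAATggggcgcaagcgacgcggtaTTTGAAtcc

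Iron storage genes were lower. FTL (chromosome 19, 48965301 to 48966878), the ferritin light chain, had 18640, 9245 and 6906 FPKM and was 2.70-fold below shNC (2.67 to 2.73). FTH1 (chromosome 11, 61959718 to 61967660), the heavy chain that oxidises iron, had 1948, 1117 and 790 FPKM, 2.47-fold lower (2.42 to 2.52). Together they took 2.01% of all reads in shNC, 1.03% in sh1089-1 and 0.760% in sh1089-2. FTH1 overlaps BEST1 (346, 197 and 146 FPKM), so the values of the 2 are not independent. Ferritin pseudogenes held few reads: 11 copies of FTH1 had 110, 44 and 36 and 5 copies of FTL had 44, 30 and 15. HMOX1 (chromosome 22, 35380361 to 35394214), which frees iron from heme, had 185, 97.4 and 63.6 FPKM, 2.91-fold lower (2.73 to 3.10). TFRC, the transferrin receptor that imports iron, was lower as well, at 37.8, 26.9 and 23.5 FPKM. Of 16 measured genes of 18 listed, 5 were at least 1.5-fold lower (FTL, FTH1, HMOX1, BLVRB and TFRC), none was higher, and the median was −0.31. ACO1, an iron sensor, and NCOA4, the receptor that sends ferritin to the lysosome, stayed within 1.5-fold with 9.65, 8.88 and 9.23 FPKM and 28.7, 22.9 and 21.8 FPKM.

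NRF2 target genes, the antioxidant programme that also includes the ferritins and HMOX1, had the lowest list median, −0.58. That rank rests on the filter. With a mean of at least 5 FPKM the median was −0.40, against −0.47 for the list of inflammatory genes. With no filter on low values the 2 medians were −0.44 and −0.48. Of 15 measured genes of 20 listed, 7 were at least 1.5-fold lower and none higher. AKR1C3, an aldo-keto reductase (chromosome 10, 5035354 to 5107686), had 167, 29 and 10 reads. Its near-identical relatives can share them, and the 4 AKR1C genes summed to 267, 36 and 25 reads, 8.35-fold lower in sh1089-2 (5.53 to 13.1). ABCC2, an export pump for conjugates, had 25.7, 11.6 and 11.6 FPKM. SLC7A11, the cystine transporter that feeds glutathione, had 6.96, 4.15 and 3.65 FPKM, and NQO1, the quinone reductase, 84.6, 59.9 and 51.5. Pentose phosphate genes were not among the lower ones, as PGD had 36.8, 44.1 and 51.3 FPKM and TKT 121, 101 and 114. The core of the antioxidant response element was in the promoters of 2 of 12 genes with a window (16.7%) and of 3.93% of all.

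The ID genes were among the lowest values, and sh1089-2 was below sh1089-1 in each. The list was chosen after its values were seen. ID3 (chromosome 1, 23557918 to 23559794) had 85.0, 37.0 and 20.2 FPKM, 4.20-fold below shNC (3.67 to 4.83). ID1 (chromosome 20, 31605283 to 31606515) had 101, 54.7 and 27.8 FPKM, 3.62-fold lower (3.19 to 4.13), and ID2 10.3, 7.64 and 3.57. The 3 genes summed to 2935, 1331 and 606 reads. ID genes are textbook targets of BMP signalling through SMAD1 and SMAD5, and those parts differed less. BMPR2, a receptor, had 5.11, 2.42 and 3.24 FPKM, SMAD5 4.95, 3.48 and 3.73, and the ligand gene BMP4 3.50, 4.54 and 4.06. Of 13 measured genes of 20 listed, ID1, ID2 and ID3 alone passed 1.5-fold.

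In tryptophan breakdown and its signalling through the aryl hydrocarbon receptor, a list also chosen after its values were seen, 3 of 10 measured genes were at least 1.5-fold lower. TDO2, the tryptophan dioxygenase (chromosome 4, 155854738 to 155920406), had 2.73, 0.359 and 0.227 FPKM on 154, 18 and 10 reads. KYNU, kynureninase, had 2.20, 0.698 and 0.377 FPKM, 5.84-fold below shNC (4.40 to 7.89). CYP1B1, an enzyme induced by the aryl hydrocarbon receptor, had 2.00, 1.32 and 0.640 FPKM. In all 3 shNC was the highest library. For TDO2 and KYNU the filter on the mean of the 3 libraries required this, so it is no finding about them. None of the 10, of 14 listed, was 1.5-fold higher, and the median was −0.51. QPRT, which makes a precursor of NAD from a breakdown product, was the highest difference at 0.17.

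**Figure D4:**
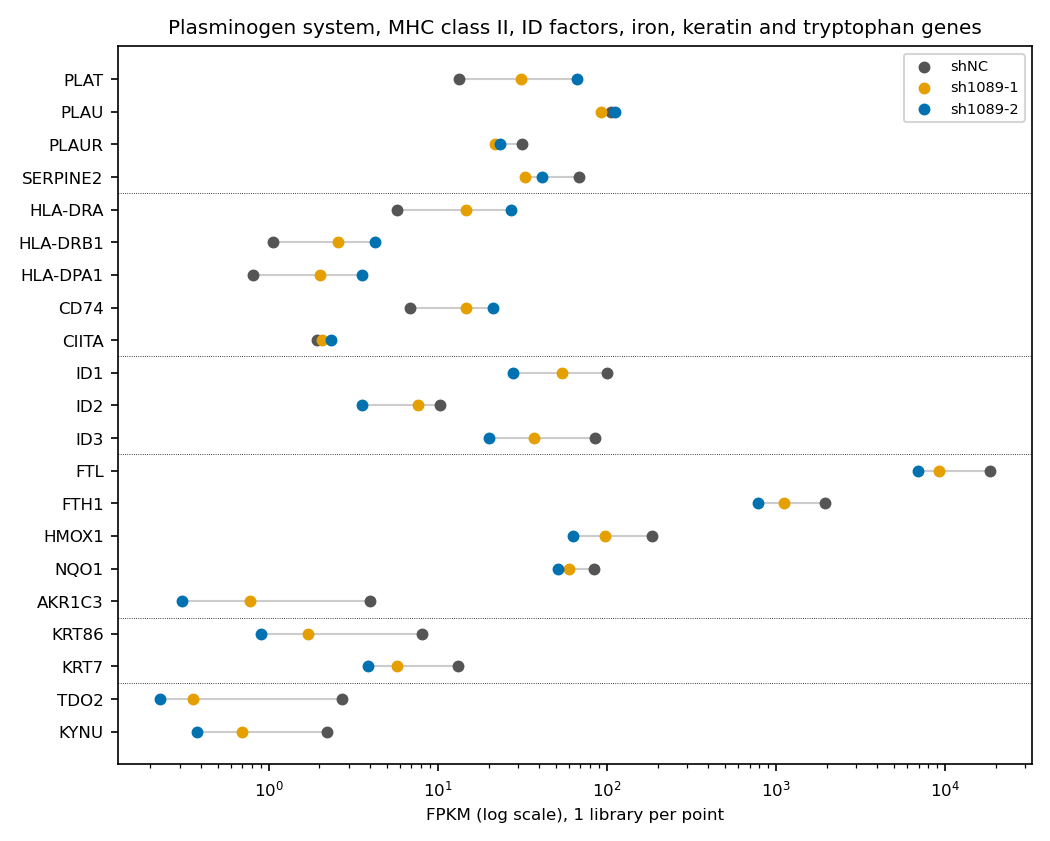
FPKM (log axis) of 21 genes of the plasminogen system, MHC class II, ID factors, iron and antioxidant genes, keratins and tryptophan breakdown, from top to bottom, 1 point per library. PLAT and HLA-DRA are highest in sh1089-2 and lowest in shNC, ID1, ID3, FTL and HMOX1 the reverse, and PLAU and CIITA have all 3 points close together.

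Inflammatory genes were lower in part. Of 18 measured genes of 21 listed, 7 were at least 1.5-fold lower, 6 of them 2-fold, and 2 were higher, with a median of −0.48. PTGES (chromosome 9, 129738331 to 129753047), which makes prostaglandin E2, had 71.9, 13.3 and 14.9 FPKM and was 4.83-fold lower (4.21 to 5.57). The cytokine gene IL6 had 48.8, 15.2 and 20.5 FPKM, CXCL8 16.3, 8.81 and 5.24, and IL1A and IL1B 18 reads or fewer in each hairpin library. CCL5, a chemokine that interferon also induces, was the 2-fold higher member with 132, 189 and 269 FPKM. The NF-kB subunit genes NFKB1 and NFKB2 stayed within 1.5-fold, at 4.75, 6.02 and 5.40 FPKM and 51.9, 37.9 and 37.3 FPKM.

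In lysosome and autophagy genes, 7 of 25, all measured, were at least 1.5-fold lower and none was higher, with a median of −0.42. CTSD, a cathepsin, had 40.4, 21.5 and 17.7 FPKM. SQSTM1, the autophagy receptor p62, had 337, 181 and 147, though it overlaps MRNIP (143, 74.6 and 63.6 FPKM). PSAP, the precursor of the saposins, had 370, 208 and 226 FPKM and CTSB 386, 189 and 230. The 25 genes took 0.902% of the reads in shNC, 0.521% in sh1089-1 and 0.541% in sh1089-2. The letters TCACGTGA, bound by the lysosomal regulator TFEB, were in 5 of 17 with a window (29.4%) and in 2.55% of all 8425 genes. Those 5 were LAMP1, CTSA, GAA, MCOLN1 and ATP6V0D1, and none of them was among the 7 lower genes.

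Stress genes did not move as a block. HSPA6 (chromosome 1, 161524540 to 161526910), a strictly inducible member of the HSP70 family, had 14.8, 1.52 and 1.47 FPKM, 10.1-fold below shNC (6.90 to 15.3). HSPA1A and HSPA1B, which share nearly all their sequence, summed to 3131, 1871 and 1141 reads. HSP90AB1, a constitutive chaperone gene, was level at 872, 890 and 903 FPKM, and DNAJB1, a cofactor of HSP70, was higher at 70.3, 105 and 123. DNAJB1 overlaps TECR (10.4, 15.8 and 18.4 FPKM), so the values of these genes may not be independent. A heat shock element of 3 alternating GAA and TTC units with any 2 bases between them was in 6 of 14 heat shock genes with a window and in 0.451% of all 8425. Those 6 were HSPA6, HSPA8, DNAJA1, HSPD1, HSP90AA1 and HSP90AB1, and all but HSPA6 stayed within 1.5-fold of shNC. HSPA6 (chr1:161524440-161524539, plus strand) carries 1 such element on the opposite strand, in capitals, in the 100 bases before its start.
HSPA6: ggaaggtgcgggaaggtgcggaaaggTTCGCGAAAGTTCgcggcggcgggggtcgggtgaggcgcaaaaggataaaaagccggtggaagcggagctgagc

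GDF15 (chromosome 19, 18374731 to 18389176), a secreted factor induced by ATF4 and p53, had 687, 145 and 128 FPKM, 5.37-fold lower (5.14 to 5.62). Its locus holds the microRNA gene MIR3189 (38.4, 17.3 and 9.83 FPKM). CEBPB, a partner of ATF4, had 111, 57.1 and 44.7 FPKM. PHGDH and PSPH, serine synthesis enzymes on the same list, were higher, with 11.1, 20.4 and 20.2 FPKM and 6.80, 12.8 and 11.5 FPKM. The ATF4 list thus had 2 genes at least 1.5-fold higher and 4 lower of 17 measured. Of 18 measured p53 targets 3 were lower (GDF15, BBC3 and ZMAT3), and of 20 unfolded protein response genes 3 were lower (DNAJB9, HERPUD1 and SEL1L), with none higher in either list.

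EPAS1 (chromosome 2, 46293667 to 46386703), which encodes the oxygen-regulated factor HIF-2alpha, had 52.3, 10.6 and 13.7 FPKM, 3.81-fold lower (3.54 to 4.11). Its relative HIF1A had 32.5, 30.2 and 30.6 FPKM. The vasodilator gene ADM had 50.3, 19.5 and 23.8 FPKM and the lactate dehydrogenase gene LDHA 578, 328 and 324, while GAPDH, also glycolytic, had 2181, 3141 and 2946. Of 18 measured genes, 4 were at least 1.5-fold lower and none higher.

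Keratin genes were found on both sides. KRT86, a hair keratin, had 8.12, 1.71 and 0.899 FPKM and KRT7, of simple epithelia, 13.2, 5.75 and 3.89, but both overlap on chromosome 12, and KRT86 also overlaps KRT81 (80.0, 86.3 and 40.4 FPKM). KRT18 and KRT19, also of simple epithelia, were higher, with 739, 1244 and 1203 FPKM and 290, 441 and 441 FPKM, and KRT18 overlaps its partner KRT8 (619, 889 and 893 FPKM). CDH1, EPCAM, CLDN4 and ESRP1 did not pass the filter. On the mesenchymal side VIM had 922, 1171 and 1445 FPKM and CDH2, N-cadherin, 6.01, 11.3 and 12.3, whereas SNAI2 had 3.14, 2.29 and 1.65. The mesenchymal list counted 3 higher and 2 lower of 14, and the epithelial list 3 higher and 4 lower of 12, close to even in both.

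In the matrix, SPP1, which encodes osteopontin (chromosome 4, 87975650 to 87983426), had 64.9, 23.5 and 21.2 FPKM, and the crosslinking enzyme gene LOX 21.4, 10.7 and 11.7. FN1, fibronectin, had 20.2, 18.5 and 32.1 FPKM and was high in sh1089-2 alone. Collagens themselves stayed within 1.5-fold. Integrin genes ITGA2 and ITGB3 were lower, with 5.10, 2.35 and 2.47 FPKM and 2.64, 0.621 and 0.871 FPKM. Histone genes were split, with 4 of 17 past 1.5-fold on each side: H2BC5 had 42.3, 17.1 and 13.2 FPKM and H1-2 248, 111 and 97.1, while the variants H2AX (51.1, 130 and 112) and CENPA (10.6, 20.4 and 22.9) were higher. Many histone messages lack a poly(A) tail, and libraries were made from enriched mRNA.

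The remaining lists are given by their counts. No gene of 18 measured splicing factors passed 1.5-fold, with HNRNPM at 41.0, 64.3 and 59.3 FPKM and a median of 0.14. Of 21 nuclear genes of the respiratory chain 1 was lower (UQCRB) and none higher, with a median of 0.02. Of 28 cytosolic ribosomal proteins 2 were lower (RPL37 and RPS27), with a median of −0.11. Among targets of TGF-beta and YAP, 3 of 20 were higher and 3 lower, CCN2 having 50.6, 85.0 and 96.0 FPKM and TGFBR1 5.82, 2.98 and 2.91. Of 18 genes of serine and one-carbon metabolism and aminoacyl-tRNA synthesis 2 were higher (SHMT1 and TYMS), with a median of 0.17. Of 13 mitochondrially encoded genes 3 were lower, of 16 integrins and laminins 3, and of 16 collagen and matrix genes 3, against 1 higher (FN1). Of 13 matrix proteases and inhibitors ADAMTS6 alone passed 1.5-fold. Outputs of ERK counted 3 lower (DUSP4, DUSP6 and IER3) and none higher of 19.

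**Figure D5:**
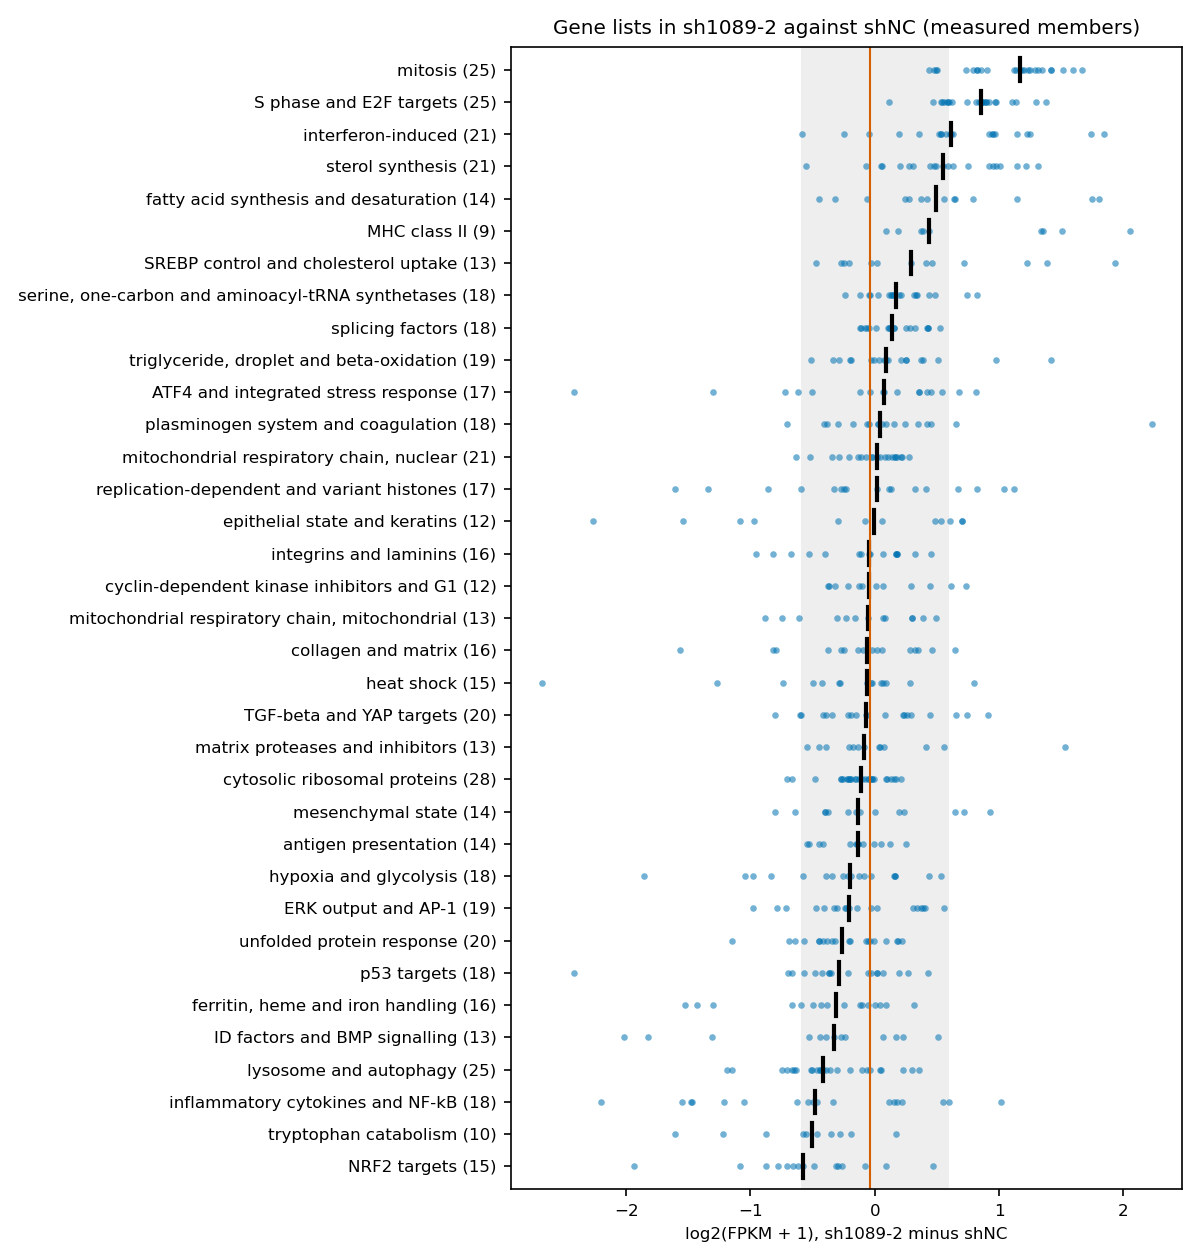
Difference in log2(FPKM + 1) between sh1089-2 and shNC for the measured members of each gene list with at least 9 measured (number in parentheses), 1 point per gene, black bars for list medians. The grey band is within 1.5-fold and the orange line the median of all 10313 genes (−0.04). Mitosis (1.17) and DNA synthesis (0.86) lie highest and NRF2 targets (−0.58) lowest.

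Position along the chromosomes was looked at because neighbouring genes can differ together. Over 9173 stretches of 50 neighbouring tested genes, 95% of the medians lay between −0.23 and 0.14. The lowest stretch, at −0.37 in sh1089-2 and −0.32 in sh1089-1, was on chromosome 11 from 9384622 to 27722058, and HPS5, a gene of lysosome-related organelles with 20.2, 5.94 and 6.01 FPKM, LDHA and ADM lie in it. The highest, at 0.29 and 0.40, was on chromosome 17 from 8474205 to 19336715 and holds SREBF1. The 50 genes around SREBF1 had a median of 0.23 and those around EPAS1 one of −0.31, while the medians around PLAT, INSIG1, FASN and SCD were 0.07, 0.06, 0.05 and −0.05. The part of these neighbourhoods in the values of single genes was not tested.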

How the data were processed

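RNA from 3 SK-Hep-1 lines, 1 library each, was enriched for mRNA and made into strand-specific libraries, per the labels' protocols. The deposited values are FPKM. FastQC, StringTie and the GRCh38 build were used, per the submitters' processing notes. Aligner, annotation release and strand setting: not given in the sources used here. GENCODE 29 gave gene types and coordinates for 22444 of 22464 identifiers. Whole reads, the integer counts behind the FPKM, were found for 99.99% of the 19219 genes above 0 by searching for a gene length that made all 3 values whole, within 0.02 reads. The length found equalled that of GENCODE 29 for 61.9% of these genes and was within 5% of it for 93.4%. The steps were checked on data simulated with counting error alone and with gene lengths known. That check therefore could not show how well lengths were found in the real data, or any spread beyond counting error. No test was run, since each group is 1 library. Named genes were the 15 largest differences each way among genes with at least 100 reads, SCD, FASN, PLAT and FTL, and in each list the members past 2-fold and up to 4 others with the largest differences. Genes named beyond these, most for their place in a pathway, were chosen after their values were seen. The comparison and all 35 gene lists were chosen with earlier results of these data known, and 3 more lists (MHC class II, ID factors and tryptophan) were added after seeing values. Python 3.11.15, pandas 2.3.3, NumPy 2.4.6, SciPy 1.17.1 and matplotlib 3.10.9 were used. A few list members are counted but not reported by name here.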

Additional observations from a re-analysis of the deposited data

Results flagged for a closer look

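Protein-coding genes alone were compared above. Of 885 genes of other types with a mean of at least 1 FPKM, 78 (8.81%) were at least 2-fold higher in sh1089-2 than in shNC and 110 (12.4%) lower. Of the 327 among them with at least 100 reads, 7 (2.14%) were higher, which flagged them as signal outside the main measurement, and 5 (1.53%) were lower. In shNC, sh1089-1 and sh1089-2, the pseudogene DHFRP1 had 9.87, 22.7 and 25 FPKM, ENSG00000186076 had 4.03, 9.88 and 21.4, and ENSG00000196656 had 12.8, 26.8 and 38.9. TPI1P1 had 8.23, 10.5 and 17.5 FPKM, UBE2SP1 had 4.19, 5.80 and 9.66, and STAG3L1 had 1.79, 3.11 and 7.43. The microRNA gene MIR3187 had 34.7, 43.5 and 76.9 FPKM. Pseudogenes can share reads with their parent genes, and that was not tested here.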

How the results depend on the processing

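No paired analysis was possible because each group is 1 library and no replicate numbers are given. Against 105 genes at least 2-fold higher and 70 lower, a pseudocount of 0.1 gave 185 and 154, a pseudocount of 5 gave 38 and 25, all gene types gave 183 and 180, a 1.5-fold threshold gave 417 and 428, and a 3-fold threshold 12 and 12. A mean of at least 5 FPKM gave 45 lower genes. Rescaling to TPM gave 189 higher and 101 lower, while centring on the median difference gave 122 and 65. Both counts rose in TPM, as they did with a pseudocount of 0.1. Rescaling also changes the size of every value relative to the pseudocount. The part of unequal library sums in the TPM counts was therefore not tested. The share of calls that were higher was 60%, but 50.4% over all gene types, 49.3% at 1.5-fold and 50% at 3-fold, and 65.4% at a mean of at least 5 FPKM, 65.2% in TPM and 65.2% after centring on the median. Rescaling to TPM moved the median of all genes from −0.04 to 0.03. The median of the DNA synthesis list became 0.90 with a pseudocount of 0.1 and 0.96 in TPM, and that of the interferon list 0.42 with a pseudocount of 5. Of the list medians, 317 of 320 recomputed values stayed within the order-statistic interval of the median, of the list counts 593 of 640 stayed within 1.5 times, of the named genes 85 of 124 values stayed within counting error, and no list median past 0.2 or named gene changed sign. Some smaller list medians did change sign. That of the mesenchymal list went from −0.14 to 0.22 at a mean of at least 5 FPKM. That of the histone list went from 0.02 to −0.23 without genes that overlap another tested gene. A pseudocount of 5 changed the list counts from 6 to 3 higher in fatty acid synthesis, 10 to 6 in sterol synthesis and 7 to 4 lower among NRF2 targets. Leaving out genes that overlap another tested gene, chosen after seeing the data, left 7596 genes and gave 85 higher and 56 lower. DNA synthesis then had 12 higher genes in place of 19, as members were left out too. Its median was 0.84 in place of 0.86. Depth limits the genes under 100 reads most, and with 1 library a group no spread between cultures is known.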
